A study of Mus with 8 samples.

Results

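Transcripts of respiratory complexes III and IV, of cytochrome c and of ATP synthase were compared between brown fat of Hilpda knockout mice and of wild type mice. The genes were taken from a list of 38 nuclear genes, 9 of complex III, 1 of cytochrome c, 14 of complex IV and 14 of ATP synthase. Each was represented by the probe set annotated with that gene alone, and where a gene had several, by the one with the highest mean over all 8 arrays. This gave 37 measured genes among 30667 named genes. Atp5c1, the gamma subunit of ATP synthase, has no probe set named for it in the platform annotation and was not analysed here.

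The tissue was brown fat dissected from between the shoulder blades, a tissue that burns fuel to make heat. Arrays came from 4 mice labelled HILPDA KO and 4 labelled wild type, all C57BL/6 and labelled female, with 1 array per mouse and no technical replicates. The labels give no age, housing temperature or deletion strategy, so the cells that lack Hilpda are not known here. Hilpda encodes a small lipid droplet protein that inhibits adipose triglyceride lipase.

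Complex III takes electrons from ubiquinol and hands them to cytochrome c, and complex IV passes them from cytochrome c to oxygen. Both complexes move protons out of the matrix, and ATP synthase lets them back in to make ATP. In brown fat the uncoupling protein Ucp1 lets protons back without ATP synthesis, and this tissue is known for much respiratory chain and little ATP synthase. Several subunits of complex IV exist as paired genes, a liver form found in most tissues and a form of heart, muscle and brown fat.

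By their values the arrays split into replicates 1 and 2 (set 1) and replicates 3 and 4 (set 2), a division with no label. The median of all named genes was 3.93 to 3.99 in set 1 and 4.92 to 4.97 in set 2, all as log2 values. With 2 KO and 2 wild type arrays in either set, the set entered the fit as a term, and values are compared within a set. Hilpda read 4.45 and 4.37 in KO against 4.37 and 4.28 in wild type in set 1, and 5.60 and 5.51 in KO against 6.00 and 5.92 in wild type in set 2. The set-adjusted difference of Hilpda was -0.16 (SE 0.11, limma adjusted p = 0.984), so the arrays are called KO by their label only. The position of the Hilpda probes relative to the deleted part is not known here, so this value does not check the labels. Of the brown adipocyte markers, 18 of 18 measured exceeded on every array a floor of low signal, the 95th percentile of the olfactory receptor genes. The same floor was exceeded on every array by 36 of the 37 genes, and by Cox6a2 on 7 of the 8. Of the 16 brown adipocyte markers that were near the array maximum on no array, 4 had a difference above 0 and 12 below, with a median of -0.12 and none called. The differences of the 18 ran from -4.63 to 1.45 in set 1 and from -1.95 to 2.02 in set 2. The 2 with the smallest unadjusted p were both among the 4 above 0. Zic1, a transcription factor of brown fat precursors, differed by 0.43 (SE 0.15) and Slc27a2, a fatty acid transport protein, by 0.22 (SE 0.13). Ucp1 stood at the top of the scale on all 8 arrays and could not be compared. Against the female label of all 8 mice, Xist stood at 3.49 to 4.10, whereas Uty, a gene of the Y chromosome, stood at 9.31 to 10.93.

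Transcripts of other tissues differed between the arrays. The mean of 35 skeletal muscle genes was 5.67 and 7.77 in KO against 6.98 and 6.54 in wild type in set 1, and 5.42 and 9.08 in KO against 9.47 and 8.15 in wild type in set 2. The mean of 23 liver genes was 11.6 and 8.85 in KO against 8.68 and 7.17 in wild type in set 1, and it lay between 5.97 and 6.30 on the 4 arrays of set 2. The floor of low signal was exceeded on every array by 21 of the 35 muscle genes and by 6 of the 23 liver genes. Of the liver genes 21 had a difference above 0, with a median of 1.09 and none called. Their median was 2.22 in set 1 and 0.07 in set 2, where 16 were above 0 and 7 below. Mup20, a major urinary protein made in liver, and Tat, a liver enzyme, differed by 2.33 (SE 0.98) and 2.31 (SE 1.07). The difference of Tat was 4.62 in set 1 and -0.00 in set 2, where it read 4.01 to 4.19, below the floor of low signal. That of Mup20 was 2.60 in set 1, where the groups overlapped, and 2.05 in set 2. There both wild type values of Mup20, 4.44 and 4.07, lay below the floor of low signal. In RNA of whole tissue, fewer cells of a type and less RNA per cell cannot be told apart.

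The first question was how transcripts of these complexes stand in brown fat labelled HILPDA KO. None of the 37 genes passed the test. limma with Benjamini-Hochberg adjustment over all named genes called 0 of the 37, and 0 of all 30667 named genes, a share of 0%. At an unadjusted p under 0.05 it was 1 of the 37, Uqcrb, against 4.82% of all named genes, 2.34% with KO lower and 2.48% with KO higher. The median difference of the 37 genes, KO minus wild type on the log2 scale with the set in the fit, was -0.03, against 0.01 over all named genes. The differences ran from -0.66 (Cox6a2) to 0.12 (Atp5o), and that of Cox6a2 rests on 1 array below the floor of low signal. Of the 37 genes 24 had a difference below 0 and 13 above 0. The share below 0 was 64.9%, against 47.4% of all named genes. That share was 75.7% after centring each array on its median, 43.2% without KO replicate 2 and 48.6% without KO replicate 4. Those 2 arrays held the lowest value of their set in 17 and 15 of the 37 genes, against 27.5% and 26.7% of all named genes. WT replicate 3 held the lowest value in 17, against 27.8%, and KO replicate 3 the highest in 19, against 28.7%.

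The 95% interval of the difference lay within 0.5 log2 units of 0 on both sides for 33 of the 37 genes, and within 0.25 for 10. The exceptions at 0.5 were Uqcrb, Uqcrfs1, Cox6a2 and Atp5g1. The interval held 0 for all 37 genes other than Uqcrb, and its half-width had a median of 0.24. The number of arrays limits this precision.

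**Figure D1:**
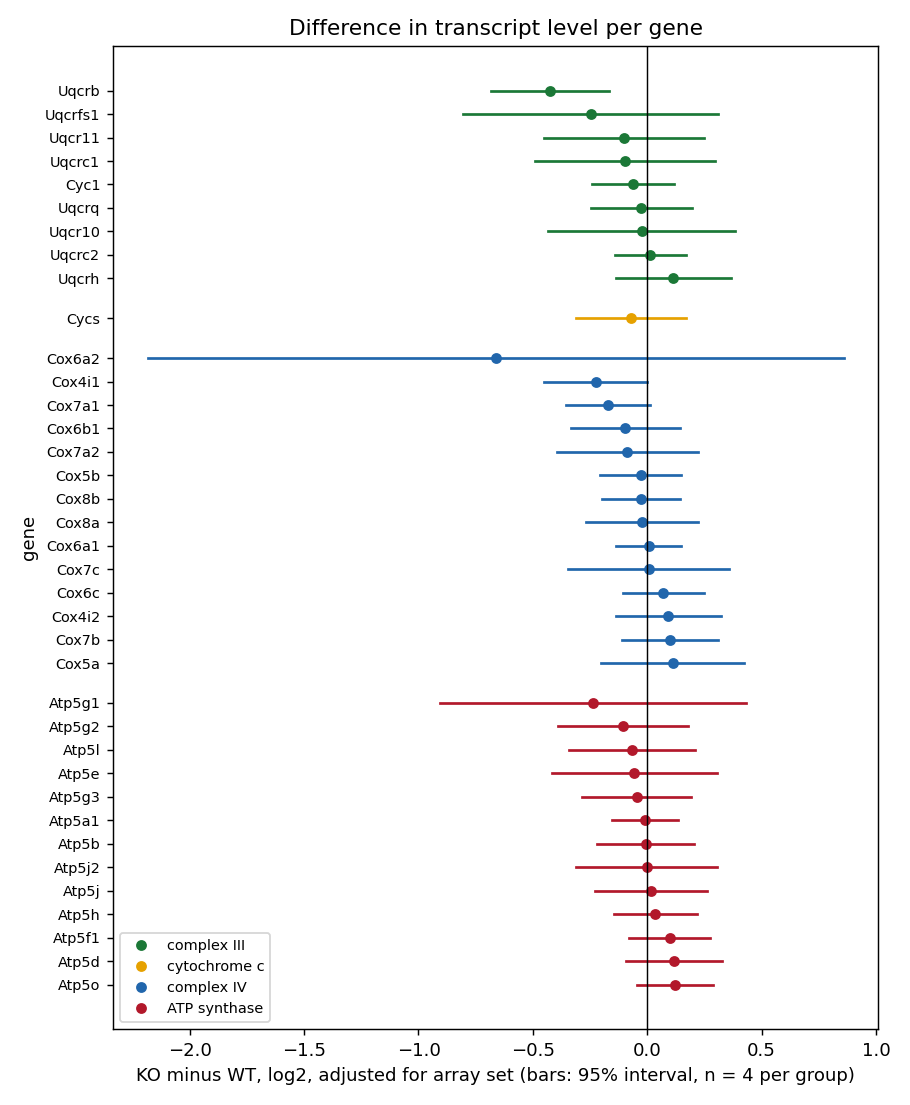
Difference KO minus wild type (x axis, log2, adjusted for the array set) for the 37 genes (y axis), grouped by complex, with 95% intervals as bars and n = 4 arrays per genotype. The intervals of 36 genes cross 0, Uqcrb lies wholly below 0 without adjustment over all genes, and the widest interval belongs to Cox6a2.

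Among the genes of complex III, 7 of 9 had a difference below 0, with a median of -0.06, and none passed the test. It was 8 of 9 after quantile normalization and after median centring. The median was -0.04 in set 1 and -0.08 in set 2 with the deposited values. After quantile normalization over all arrays and within each set it was above 0 in set 1, at 0.03 and 0.04. In set 2 it was then -0.33 and -0.29, so the sets went in opposite directions. Uqcrb, a small nuclear-encoded subunit bound near the ubiquinone-binding region, read 15.77 and 15.55 in KO against 15.98 and 16.22 in wild type in set 1. In set 2 Uqcrb read 17.21 and 16.81 in KO against 17.39 and 17.46 in wild type. Both KO values therefore lay below both wild type values in each set. The difference was -0.44 (SE 0.16) in set 1 and -0.42 (SE 0.16) in set 2. With the set in the fit it was -0.43 (SE 0.11), a KO level of 0.745 times wild type. The 95% interval ran from -0.68 to -0.17, the unadjusted limma p was 0.00542 and the adjusted p was 0.984. Uqcrb was the only one of the 37 genes, 1 of 37, whose KO values lay below all wild type values within both sets, and 2.46% of all named genes did so.

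The catalytic subunits of complex III had smaller differences than Uqcrb. Cyc1, cytochrome c1, read 14.21 and 13.98 in KO against 14.11 and 14.16 in wild type in set 1, and 14.83 and 14.85 in KO against 14.99 and 14.87 in wild type in set 2. Its difference was -0.06 (SE 0.08), and the groups overlapped in set 1. Uqcrfs1, the Rieske iron-sulfur protein, had a difference of -0.25 (SE 0.24), with KO replicate 2 at 8.37 and the other arrays of set 1 at 9.02 to 9.56. In set 2 Uqcrfs1 read 11.89 and 11.94 in KO, below the 12.07 and 12.24 of wild type. The core proteins Uqcrc1 and Uqcrc2, which hold the complex together on the matrix side, differed by -0.10 (SE 0.17) and 0.01 (SE 0.07). KO lay below wild type for Uqcrc1 in set 2 only, and the groups of Uqcrc2 overlapped in both sets.

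The other small subunits of complex III had differences on either side of 0. Uqcrh, the hinge protein that helps cytochrome c dock, read 14.50 and 14.62 in KO against 14.44 and 14.41 in wild type in set 1, and 14.97 and 14.54 in KO against 14.56 and 14.77 in wild type in set 2. KO lay above wild type in set 1, and the groups overlapped in set 2. Its difference was 0.11 (SE 0.11), but -0.04 and -0.00 after quantile normalization over all arrays and within each set. Uqcrq, Uqcr10 and Uqcr11, further small subunits, differed by -0.03, -0.02 and -0.10, each with groups that overlapped within both sets. Whether Uqcrb differs from the other subunits was not tested.

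Cytochrome c, encoded by Cycs, carries electrons between the complexes. Its highest probe set read 18.54 and 18.57 in KO against 18.36 and 18.57 in wild type in set 1, and 17.93 and 18.03 in KO against 18.07 and 18.34 in wild type in set 2. For this probe set the KO values lay below the wild type values in set 2 only, and the difference was -0.07 (SE 0.10). The identifier of that probe set carries another chromosome than the Cycs gene. A second probe set, which carries the chromosome of the gene, gave the reverse, with KO below wild type in set 1 and overlapping groups in set 2. It read 16.04 and 16.01 in KO against 16.11 and 16.09 in wild type in set 1, and 16.38 and 16.00 in KO against 16.42 and 16.25 in wild type in set 2, a difference of -0.11 over both sets.

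**Figure D2:**
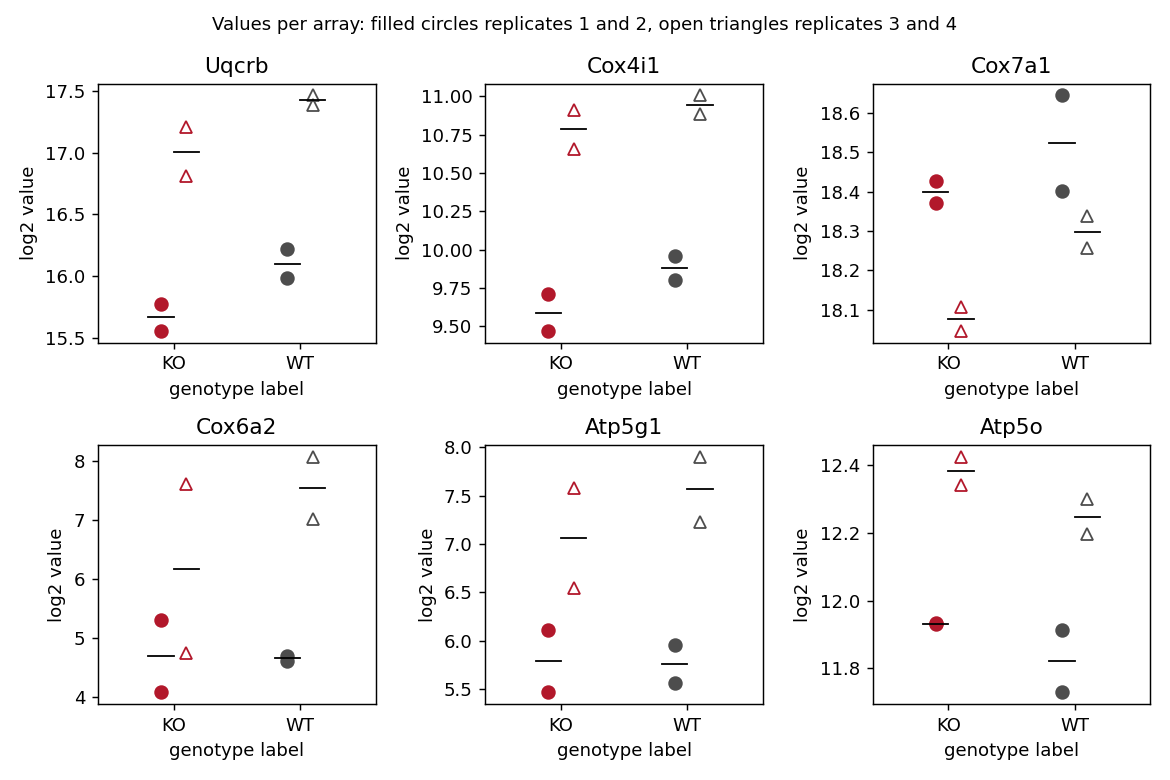
Log2 values per array for 6 genes, KO left of wild type (x axis: genotype label), filled circles for replicates 1 and 2, open triangles for replicates 3 and 4 and a bar at the mean of each 2 arrays. Uqcrb is lower in KO within both sets and Atp5o higher, whereas Cox6a2 and Atp5g1 spread most among the KO arrays of replicates 3 and 4.

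Among the 14 genes of complex IV, 8 had a difference below 0 and 6 above 0, the median was -0.02 and none passed the test. The smallest unadjusted p values belonged to Cox4i1 and Cox7a1. Cox4i1, the common form of a regulatory subunit, read 9.71 and 9.47 in KO against 9.80 and 9.96 in wild type in set 1, and 10.91 and 10.66 in KO against 10.88 and 11.01 in wild type in set 2. KO lay below wild type in set 1, and the groups overlapped in set 2. The difference was -0.23 (SE 0.10, limma adjusted p = 0.984).

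Cox4i2, its partner known from lung and induced by low oxygen, read 4.54 and 4.63 in KO against 4.64 and 4.57 in wild type in set 1. In set 2 Cox4i2 read 6.12 and 6.42 in KO against 5.98 and 6.15 in wild type. The groups overlapped in both sets, and the difference was 0.09 (SE 0.10). The log2 difference of Cox4i2 over Cox4i1 within an array was larger in KO by 0.27 in set 1, where the groups overlapped, and by 0.36 in set 2, as a description without a test. The other pairs of complex IV changed sign between the sets, with 0.02 and -1.35 for Cox6a2 over Cox6a1, 0.18 and -0.35 for Cox7a1 over Cox7a2, and 0.17 and -0.18 for Cox8b over Cox8a.

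The 3 forms of heart, muscle and brown fat had differences of -0.66 (Cox6a2), -0.17 (Cox7a1) and -0.03 (Cox8b). Their liver-type partners stood at 0.01 (Cox6a1), -0.09 (Cox7a2) and -0.02 (Cox8a), and no gene of either kind passed the test. Cox7a1, whose product favours paired complex IV in muscle, read 18.43 and 18.37 in KO against 18.40 and 18.64 in wild type in set 1. In set 2 Cox7a1 read 18.11 and 18.05 in KO against 18.26 and 18.34 in wild type. The groups overlapped in set 1 and were apart in set 2, and the difference was -0.17 (SE 0.08), or -0.12 and -0.22 within the sets. Cox7a2 went below wild type in set 1, at 16.54 and 16.08 in KO against 16.62 and 16.61, and above it in set 2, at 15.94 and 15.90 in KO against 15.71 and 15.87. The difference of Cox7a2 was -0.30 in set 1 and 0.13 in set 2, and the difference between the sets did not pass (limma adjusted p = 0.456).

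Cox8b, used as a marker gene of brown fat, was among the most even of these genes. It read 15.35 and 15.33 in KO against 15.30 and 15.32 in wild type in set 1, and 16.05 and 15.84 in KO against 16.05 and 16.03 in wild type in set 2. The difference was -0.03 (SE 0.07, 95% interval -0.20 to 0.14), and it was 0.02 and 0.04 after quantile normalization over all arrays and within each set. Cox8a read 17.11 and 16.98 in KO against 17.32 and 17.05 in wild type in set 1, and 18.42 and 18.25 in KO against 18.12 and 18.36 in wild type in set 2. Cox6a1 read 17.58 and 17.53 in KO against 17.53 and 17.53 in wild type in set 1, and 18.64 and 18.57 in KO against 18.61 and 18.62 in wild type in set 2. The intervals of Cox8a and Cox6a1 ran from -0.27 to 0.22 and from -0.14 to 0.15. In KO replicate 1, where the mean of the liver genes was highest and Tat read 10.81, the 3 liver-type forms read 17.58 (Cox6a1), 16.54 (Cox7a2) and 17.11 (Cox8a). The part of liver RNA in these values was not tested.

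Cox6a2, the heart and muscle form of its subunit, varied most. It read 4.08 and 5.31 in KO against 4.61 and 4.70 in wild type in set 1, and 4.74 and 7.60 in KO against 8.06 and 7.01 in wild type in set 2. KO replicate 3 lay far below the other arrays of set 2 and was the 1 array whose value did not exceed the floor of low signal (4.79 there), and KO replicate 4 lay between the wild type arrays. The difference was -0.66 (SE 0.65) with all arrays and 0.05 without KO replicate 3. In set 2 the arrays had the same order for Cox6a2 as for the mean of the 35 skeletal muscle genes, lowest in KO replicate 3, then WT replicate 4, KO replicate 4 and WT replicate 3. Within set 1 the muscle genes split into 17 above and 18 below 0 (median -0.00), and within set 2 all 35 lay below 0 (median -1.13). Over both sets all 35 had a difference below 0, with a median of -0.58, none passed the test, and their mean ranged from 5.42 to 9.08 in KO and from 6.54 to 9.47 in wild type. Myh7, a slow muscle myosin, and Pgam2, a muscle enzyme of glycolysis, differed by -0.56 (SE 0.30) and -0.42 (SE 0.32). Each exceeded the floor of low signal on only 6 of the 8 arrays. Acta1, the actin of skeletal muscle, read 9.06 in KO replicate 3 and 12.78 to 14.38 on the other arrays of set 2. The part of muscle RNA in the Cox6a2 values was not tested.

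**Figure D3:**
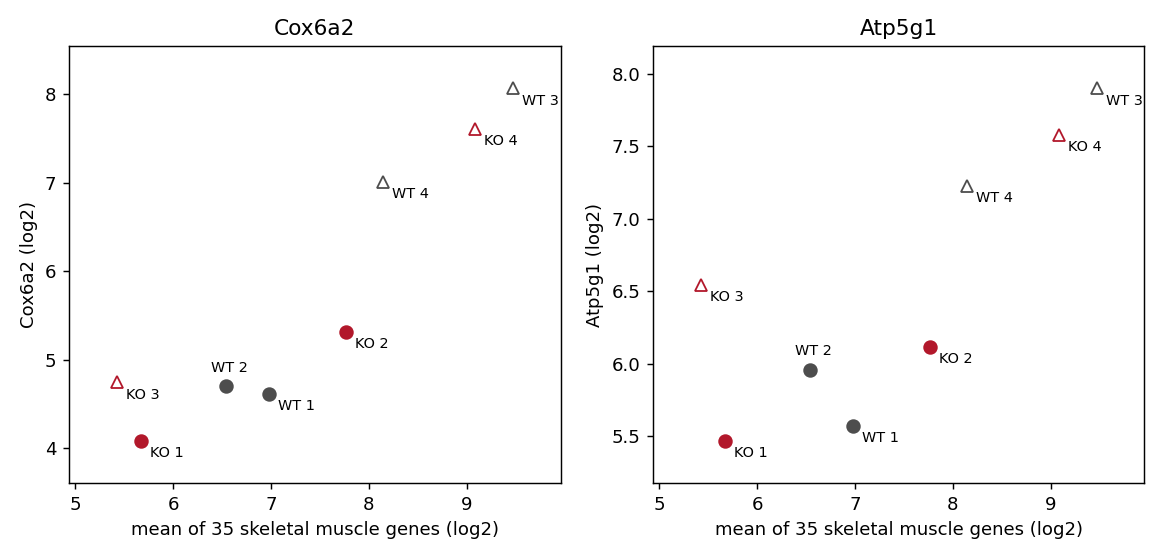
Log2 values of Cox6a2 and Atp5g1 (y axes) against the mean log2 value of 35 skeletal muscle genes (x axes) on each array, red for KO and grey for wild type, filled circles for replicates 1 and 2 and open triangles for replicates 3 and 4. In replicates 3 and 4 both genes follow the order of the muscle mean, lowest in KO 3 and highest in WT 3.

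The other genes of complex IV had differences between -0.10 and 0.11. Cox5a, a subunit that binds a thyroid hormone metabolite, read 14.65 and 14.48 in KO against 14.59 and 14.74 in wild type in set 1, and 14.84 and 15.29 in KO against 14.67 and 14.82 in wild type in set 2. Both KO values lay above wild type in set 2 alone, and the difference was 0.11 (SE 0.13). Cox5b, a zinc-binding subunit, differed by -0.03, Cox6b1, which faces the intermembrane space, by -0.10, and Cox6c, a small membrane subunit, by 0.07. Cox7b and Cox7c, 2 further membrane subunits, differed by 0.10 and 0.01.

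Among the 13 measured genes of ATP synthase, 8 had a difference below 0 and 5 above 0, the median was -0.01 and none passed the test. After quantile normalization within each set the split turned to 5 below and 8 above 0, with a median of 0.01. The catalytic head was even between the genotypes. Atp5a1, the alpha subunit (now Atp5f1a), read 17.73 and 17.73 in KO against 17.74 and 17.77 in wild type in set 1, and 17.82 and 17.72 in KO against 17.74 and 17.77 in wild type in set 2. Atp5b, the catalytic beta subunit, read 15.55 and 15.52 in KO against 15.58 and 15.55 in wild type in set 1, and 17.28 and 16.91 in KO against 17.12 and 17.05 in wild type in set 2. The differences were -0.01 for both (SE 0.06 and 0.09), with intervals from -0.15 to 0.14 and from -0.22 to 0.21. The central stalk genes Atp5d and Atp5e, the delta and epsilon subunits, differed by 0.12 (SE 0.09) and -0.06 (SE 0.16).

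Atp5g1, Atp5g2 and Atp5g3 encode the c subunit that forms the proton-driven ring, as the same mature protein with different import sequences. In mice, Atp5g1 is known to limit the amount of ATP synthase in brown fat. Atp5g1 read 5.47 and 6.12 in KO against 5.57 and 5.96 in wild type in set 1, and 6.55 and 7.58 in KO against 7.90 and 7.23 in wild type in set 2. The groups overlapped in both sets, and in set 2 the order of the arrays was that of the skeletal muscle mean. The difference was -0.24 (SE 0.29), and 0.02 without KO replicate 3. Cox6a2 and Atp5g1 were 2 of the 37 genes with the muscle order in set 2, an order held by 3.97% of all named genes, and in set 1 it was 0 of the 37 and 2.94%.

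Atp5g2 read 15.65 and 15.66 in KO against 16.02 and 15.94 in wild type in set 1, and 16.38 and 16.50 in KO against 16.14 and 16.51 in wild type in set 2. KO lay below wild type in set 1, by 0.33, and the groups overlapped in set 2. A second probe set of Atp5g2 gave differences of -0.41 in set 1 and 0.19 in set 2. Atp5g3 read 9.34 and 9.47 in KO against 9.35 and 9.54 in wild type in set 1, and 11.32 and 10.97 in KO against 11.09 and 11.29 in wild type in set 2. The differences over both sets were -0.11 (SE 0.12) for Atp5g2 and -0.05 (SE 0.10) for Atp5g3.

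The peripheral stalk holds the head still while the ring turns, and its 4 measured genes had differences above 0, or 3 of the 4 after median centring. Atp5o, the OSCP subunit that ties the stalk to the head, read 11.93 and 11.93 in KO against 11.91 and 11.73 in wild type in set 1, and 12.34 and 12.42 in KO against 12.20 and 12.30 in wild type in set 2. Both KO values of Atp5o lay above both wild type values in each set, which held for 1 of the 37 genes and for 2.84% of all named genes. Its difference was 0.12 (SE 0.07, limma adjusted p = 0.984). Atp5f1, the b subunit (now Atp5pb), read 13.39 and 13.40 in KO against 13.39 and 13.35 in wild type in set 1, and 13.80 and 13.83 in KO against 13.54 and 13.75 in wild type in set 2. The difference was 0.10 (SE 0.08), with groups apart in set 2 only. Atp5h and Atp5j, the d and F6 subunits, differed by 0.04 and 0.02.

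The membrane subunits f and g, encoded by Atp5j2 and Atp5l, differed by -0.00 and -0.06. Of the 3 probe sets of Atp5l, 2 exceeded the floor of low signal on every array, with differences of -0.06 and -0.10, and the other did so on 1 array. The highest of them carries another chromosome than the gene in its identifier, as does that of Atp5g2. Over all named probe sets, 99.1% carry the chromosome of their gene.

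**Figure D4:**
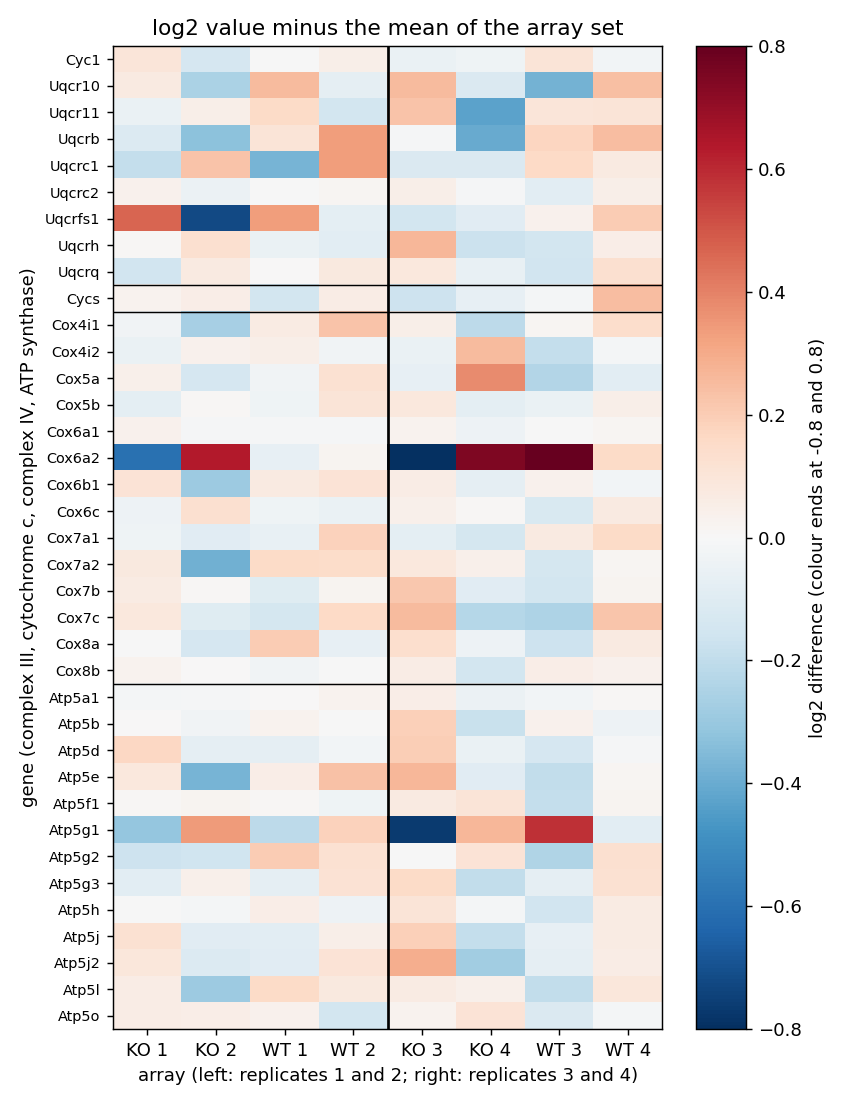
Log2 value of each of the 37 genes (rows) on each array (columns) minus the mean of its array set, red above and blue below, with colours ending at -0.8 and 0.8. Cox6a2 and Atp5g1 vary most, and in their set KO 2, KO 4 and WT 3 hold the lowest value of 17, 15 and 17 genes.

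Within the sets the 37 genes did not keep a common direction. In set 1, 24 of 37 had a difference below 0, with a median of -0.02, against 49% of all named genes. In set 2 it was 14 of 37, with a median of 0.01, against 46.5%. After quantile normalization within each set these counts were 12 of 37 (median 0.07) in set 1 and 27 of 37 (median -0.06) in set 2, so the split within a set turns with the scaling. Of the 37 genes 8 were below 0 in both sets, 7 above 0 in both, 6 above 0 in set 1 alone and 16 above 0 in set 2 alone. Being below 0 in both sets held for 19.2% of all named genes. In set 1 limma called 0 of the 37 genes, and 0% of all named genes. In set 2 it called 0 of the 37, against 0.00326% of all named genes, 1 gene. Testing whether the sets differ in this difference called 0 of the 37 (lowest adjusted p = 0.362, Atp5g2), against 0.499% of all named genes.

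At an unadjusted p under 0.05, set 1 held 2 of the 37 (Uqcrb and Atp5g2), against 7.74% of all named genes, and set 2 held Uqcrb alone, against 15.1%. KO and wild type values were apart with KO lower in 6 of the 37 genes in set 1, against 19.4% of all named genes, and in 6 in set 2, against 19.1%. KO was higher without overlap in 3 genes in set 1, against 18.9%, and in 4 in set 2, against 23.9%.

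**Figure D5:**
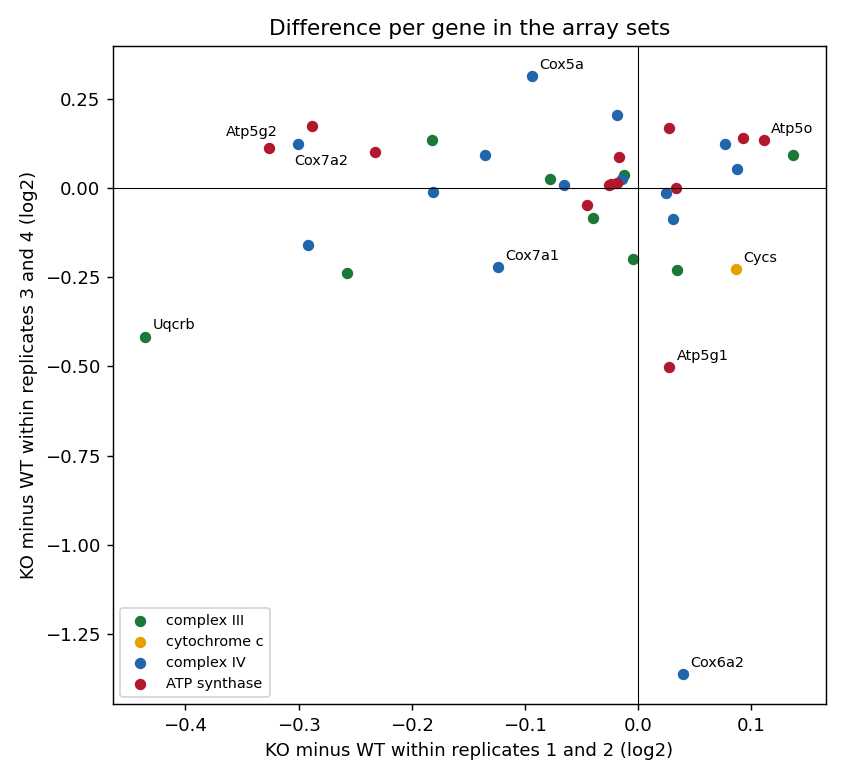
Difference KO minus wild type of each gene within replicates 1 and 2 (x axis, log2) against that within replicates 3 and 4 (y axis, log2), coloured by complex. Uqcrb is below 0 on both axes, Cox6a2 and Atp5g1 are near 0 on x and below 0 on y, and the other genes lie within 0.33 of 0 on both.

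The level of the 37 genes differed more between the sets than between the genotypes. Set 2 was higher in 31 of the 37 genes, a share of 83.8%, against 96.3% of all named genes. The median shift was 1.06 over the 37 and 0.88 over all named genes. The 6 genes lower in set 2 were Cox6b1 (-0.62), Cox7a2 (-0.61), Cycs (-0.42), Cox7a1 (-0.27), Atp5l (-0.06) and Uqcrc1 (-0.01). For Cycs and Atp5l this depends on the probe set, as the one used carries another chromosome than the gene. A probe set with the gene's chromosome read 16.01 to 16.11 in set 1 and 16.00 to 16.42 in set 2 for Cycs. For Atp5l one above the floor of low signal on every array read 9.58 to 9.66 and 10.22 to 10.77. Uqcrfs1 had the largest shift, 2.94. Levels are therefore not set across the sets.

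Other genes of the same pathway were read in the same fit. Of 15 further subunits and associated proteins, 11 had a difference above 0 and 4 below, with a median of 0.03 and none called. Higd1a, a complex IV partner induced by low oxygen, differed by -0.24 (SE 0.11), and Atp5mpl, a small ATP synthase subunit, by 0.15 (SE 0.08). Ndufa4, now counted as a complex IV subunit, differed by 0.01 (SE 0.10), and Atpif1, the inhibitor of ATP hydrolysis by ATP synthase, by -0.04 (SE 0.09).

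Of the complex subunits encoded in mitochondrial DNA, COX1 and COX2 were measured. COX1 read 16.16 to 16.17 on all 4 arrays of set 1 and 18.56 and 18.34 in KO against 18.52 and 18.53 in wild type in set 2. COX2 read 15.21 on all 4 arrays of set 1, and 14.16 and 14.10 in KO against 14.13 and 14.16 in wild type in set 2. In set 1 the values of COX1 and COX2 spanned under 0.01, as did 116 of the named genes and none of the 37, so set 1 carries no measurable difference for them. Cox6a1 read 17.5344 in KO replicate 2 and both wild type arrays of set 1, against 17.58 in KO replicate 1. Its narrow interval rests in part on these tied values.

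Assembly factors of complexes III and IV and of ATP synthase had 22 of 30 differences below 0, with a median of -0.10 and none called. Their median was 0.11 in set 1 and -0.25 in set 2. Coa5 and Coa4, complex IV assembly factors, differed by -0.32 (SE 0.16) and -0.13 (SE 0.06). Coa4 was lower in KO without overlap in both sets, as were 2.46% of all named genes. Uqcc1, an assembly factor of complex III, read 8.04 and 8.09 in KO against 7.66 and 7.60 in wild type in set 1, and 9.34 and 9.16 in KO against 9.88 and 9.86 in wild type in set 2. Its difference between the sets passed with the deposited values (limma adjusted p = 0.0466), but not after median centring (0.0547), with a variance trend and robust moderation (0.0749) or by ordinary least squares (0.175). Uqcc1 was named after its values were seen. Complex II, which feeds electrons from succinate, had 6 of 8 differences below 0 and a median of -0.06. Sdhc, its membrane anchor, read 13.05 and 12.75 in KO against 12.65 and 12.66 in wild type in set 1, and 14.03 and 13.88 in KO against 13.79 and 13.40 in wild type in set 2. Sdhc was higher in KO without overlap in both sets, as were 2.84% of all named genes, by 0.30 (SE 0.11, limma adjusted p = 0.984). Sdhaf2, which attaches flavin to Sdha, differed by -0.15 (SE 0.07).

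Of 16 measured regulators of respiratory chain genes, 11 had a difference below 0, with a median of -0.07 and none called. Esrrg, an orphan nuclear receptor that acts on these genes, read 6.17 and 6.35 in KO against 6.96 and 7.06 in wild type in set 1, and 8.59 and 7.81 in KO against 8.25 and 9.09 in wild type in set 2. KO lay below wild type in set 1 and the groups overlapped in set 2, with a difference of -0.61 (SE 0.23, limma adjusted p = 0.984). Ppara, a nuclear receptor of fatty acid use, differed by -0.81 (SE 0.38) and was lower in KO without overlap in both sets, as were 2.46% of all named genes. Ppargc1a, the coactivator of mitochondrial biogenesis, read 11.17 and 12.51 in KO against 12.14 and 13.38 in wild type in set 1, and 15.72 and 15.40 in KO against 14.10 and 14.31 in wild type in set 2. The Ppargc1a difference was -0.92 in set 1, where the groups overlapped, and 1.36 in set 2, where KO lay above wild type. Its difference between the sets did not pass (limma adjusted p = 0.210). Perm1, a muscle and brown fat regulator of oxidative genes, differed by 0.96 in set 1 and -2.04 in set 2, a difference between the sets that passed with the deposited values (limma adjusted p = 0.0406), but not with a variance trend and robust moderation (0.0533) or by ordinary least squares (0.213). Perm1 was named after its values were seen. Esrra has no probe set annotated with that gene alone and was not analysed here.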

How the data were processed

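Expression was deposited on a log2 scale, 1 value per probe set and array. The authors obtained it, per the labels, with RMA on core exons (Affymetrix Expression Console), and the design text adds Transcriptome Analysis Console. No source used here gives a version, an annotation or a build. No scanner files were used. The table held 72688 probe sets, 6732 of them controls. Of the others, 31219 carried 1 gene, 1531 several and 33206 no name in the platform annotation, and 31217 of the 31219 matched RefSeq names of assembly GRCm38.p6. The probe set with the highest mean stood for a gene.

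limma 3.58.1 in R 4.3.3 fitted KO minus wild type with the array set as a fixed term, and a genotype by set model gave values within the sets and their difference, with no filter, all adjusted over 30667 genes at 0.05. The fit was tested on simulated data. The members, lists, array sets and tests were chosen with earlier results of these data known. The text names all members, in each other list the 2 genes with the smallest unadjusted p, and fixed reference genes, except Alb. Genes named outside this rule are marked as such. The genes most alike in pattern to the members, also in that rule, are not reported, since the arrays form 2 sets of 4. Replicate numbers are shared by the groups. Same-numbered KO and wild type arrays, each taken relative to its group mean, had correlations of 0.701, 0.473, 0.479 and 0.610. With the set removed, the correlation was 0.107 for replicates 1 and 2 and -0.0887 for replicates 3 and 4. With 2 arrays per genotype and set these values are equal within a set by construction. They cannot decide whether arrays are paired beyond the set. The labels do not say how animals were matched. Alternatives are given in the closing section.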

Additional observations from a re-analysis of the deposited data

Results flagged for a closer look

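In a group of 4 arrays, 1 array lay far from the 3 others for 2 genes among those named. Uqcrc1 read 17.36 in KO replicate 2, with the 3 other KO arrays at 16.94 to 17.00, and WT replicate 2 read 17.47. Atp5a1 read 17.82 in KO replicate 3, with the 3 other KO arrays at 17.72 to 17.73. The 126 groups looked at each held arrays of both sets, so a shift between the sets can hide an outlying array. A chance rate of about 1 in 20 groups therefore does not apply here. Uqcrc1 and Atp5a1 had shifts of only -0.01 and 0.02 between the sets, against a median of 1.06 over the 37 genes.

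For 3 genes of the other gene lists the difference between KO and wild type differed between the array sets. Over all named genes it did so for 153, a share of 0.499%. Set 2 minus set 1 was -1.05 for Uqcc1, -3.00 for Perm1 and -3.41 for Otop1, a proton channel of brown fat, with limma adjusted p = 0.0466, 0.0406 and 0.0466. The adjusted p was 0.0547, 0.0483 and 0.0503 after median centring, 0.0749, 0.0533 and 0.0609 with a variance trend and robust moderation, and 0.175, 0.213 and 0.227 by ordinary least squares. Otop1 read 13.47 and 13.59 in KO against 12.44 and 11.72 in wild type in set 1, and 12.96 and 12.53 in KO against 15.09 and 14.30 in wild type in set 2. Otop1 and the other 2 were named after their values were seen.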

How the results depend on the processing

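The count of called genes among the 37 was 0 under all alternatives run, and their median difference kept within the spread between arrays (-0.07 to 0.01 with 1 array left out). Over all named genes the count was 0 to 1 with 1 array left out, the 1 being without KO replicate 3, and 0 otherwise. With the replicate block in place of the set it was 0 for all genes and 0 for the 37, and without a set term 0 and 0. Unadjusted p-values under 0.05 numbered 1231 with the replicate block, 38 without a set term and 1479 with the set. The count of genes whose difference differed between the sets, 153, was 82 after median centring, 6 with a variance trend and robust moderation and 0 by ordinary least squares, and the cause was not tested. The count in set 2 was 1, and 0 when that set was fitted alone, with fewer samples.

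Of 16 genes named in full, 7 kept their direction under the 19 alternatives that use both sets (Uqcrb, Cox4i1, Cox4i2, Cox7a1, Atp5g2, Atp5d and Atp5o), and none passed the threshold in any. In this balanced design a model without a set term, a replicate block, filters on signal level or other variance models cannot change a difference. Those alternatives therefore do not bear on direction. With each set taken alone Cox4i2 and Atp5g2 turned, at -0.019 and -0.33 in set 1 and 0.20 and 0.11 in set 2. With 1 array left out the difference ranged from -0.0072 to 0.025 for Cox6a1, -0.16 to 0.048 for Cox7a2, -0.091 to 0.056 for Cox8a, -1.09 to 0.051 for Cox6a2, -0.42 to 0.023 for Atp5g1, -0.058 to 0.026 for Cox8b, -0.12 to 0.024 for Atp5g3, -0.14 to 0.014 for Cycs and -0.51 to -0.35 for Uqcrb. After quantile normalization over all arrays and within each set, Cox8b stood at 0.017 and 0.037 and Uqcrh at -0.042 and -0.0040, and Cox6a1 was at -0.016 after median centring. The cause of these turns was not tested. The probe set rule by chromosome was chosen after seeing the data.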
